A study of Mus with 18 samples.

Results

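The genes described here are 7 fibrotic matrix and myofibroblast genes of the mouse, measured by RNA sequencing of lens epithelial cells (LECs) taken at once after the fiber cell mass was lifted out of the lens (0 h) or 6 h later. They were chosen by a list of Ensembl IDs with their names, and all 7 were found among the 55416 genes of each count table. The list holds Fn1 (ENSMUSG00000026193), Tnc (ENSMUSG00000028364), Tgfbi (ENSMUSG00000035493), Col1a1 (ENSMUSG00000001506), Col1a2 (ENSMUSG00000029661), Col3a1 (ENSMUSG00000026043) and Acta2 (ENSMUSG00000035783). The question put to them was which of these genes were already higher at 6 h post cataract surgery (PCS) in each of 3 genotypes.

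The 18 libraries fell into 6 groups of 3, and each library pooled 5 lens capsules from mice of 3 to 5 months of age and both sexes. Wild-type (WT) mice were compared with Egr1KO mice, homozygous for a systemic Egr1 knockout in which a neo cassette interrupts exon 2, and with FosBcKO mice, in which floxed Fosb was deleted by the MLR10 Cre transgene under an alpha A-crystallin promoter. All groups underwent the same fiber cell removal, with one eye operated 6 h before the other and both capsules of a mouse collected at the same time. The labels give the strain C57BL/6 for every library, whereas the study's methods name a stock of mixed background for Egr1KO.

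The Egr1 deletion was present in every tissue and the Fosb deletion in cells in which the lens promoter is active, so other cells on a FosBcKO capsule would keep Fosb. The labels do not state whether the WT mice were littermates or carried the floxed allele or Cre. Genotype and any difference in breeding background cannot be told apart. The levels of Egr1 and Fosb, the markers of lens epithelium, and the markers of fibroblasts, smooth muscle cells and leukocytes were not analysed here, since the tables hold IDs with no names. The labelled genotypes and cell type were therefore not checked by marker genes.

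Fibrosis is the replacement of a tissue by excess extracellular matrix, laid down by contractile cells called myofibroblasts. After cataract surgery, LECs left on the capsule can turn into such cells, and the matrix they make wrinkles and clouds the capsule, a complication known as posterior capsular opacification. Transforming growth factor beta (TGF-beta) is the best known driver of this change. A provisional matrix rich in fibronectin and tenascin is typical of early wounds, fibrillar collagens give the lasting scar its strength, and smooth muscle actin marks the contractile cell.

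Libraries held between 9609295 and 13871592 counts on genes. Read pairs aligned outside annotated genes made up 8.03% to 20.9% of a library at 0 h and 20.0% to 30.5% at 6 h, so this share moved with time, and its part in the changes below was not tested. Over all genes, the mean correlation of a library with the others of its group ran from 0.915, in Egr1KO replicate 1 at 6 h, to 0.964. A pair of libraries stood apart for several of the 7 genes. WT replicate 1 at 0 h had the highest values of its group for Fn1, Tnc, Tgfbi, Col1a1 and Col3a1, while its mean correlation over all genes, 0.953, was the highest of its group. Egr1KO replicate 1 at 6 h had the lowest value of its group for all 7 genes, and its Tnc count was 2. Some of the results that rest on these libraries are also given without them.

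Levels are counts per 1000000 counts on genes (CPM), given as mean ± SD of 3 libraries, and they are compared within a gene only, because gene lengths were not used. Log2 fold changes carry the standard error (SE) of the fit. In bulk RNA, fewer cells of a type and less RNA per cell cannot be told apart. Differentially expressed genes (DEGs) had to change over 2-fold and to have a false discovery rate (FDR, Benjamini-Hochberg) no higher than 0.05, and only such genes are said to have risen or fallen.

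Tgfbi, Tnc and Fn1, which encode matrix glycoproteins, were the genes found higher at 6 h PCS, and the calls differed by genotype. Tgfbi rose in Egr1KO and in FosBcKO, Fn1 rose in Egr1KO, and Tnc rose in FosBcKO. In WT none of the 6 genes tested was called higher, although Tnc and Tgfbi were called once WT replicate 1 at 0 h was left out. That library was set apart by its high values of these same genes. The calls without it show its weight and do not test a rise in WT. Acta2, which encodes alpha smooth muscle actin, fell in all 3 genotypes. No collagen gene was called in either direction at 6 h against 0 h. For WT the study lists Acta2 and Col1a1 as not significantly changed by 6 h PCS, both with higher levels at 6 h. The WT estimates here were lower at 6 h for both genes. Whether the study's values came from the same WT libraries could not be settled, and the difference was not examined.

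By count, the DEGs higher at 6 h were 0 of 6 genes tested for WT, 2 of 6 for Egr1KO and 2 of 7 for FosBcKO. Over all genes tested, 13.5% were called higher in WT, 9.28% in Egr1KO and 11.2% in FosBcKO. Acta2 alone was called lower in each genotype, where the share of all genes called lower was 3.65% for WT, 2.69% for Egr1KO and 1.9% for FosBcKO. The median log2 fold change of the tested members was -0.25 for WT, 1.02 for Egr1KO and 0.89 for FosBcKO, beside medians over all genes of -0.02, 0.00 and 0.05. Col3a1 was removed by the filter on low counts in WT and Egr1KO and was tested in FosBcKO alone.

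**Figure D1:**
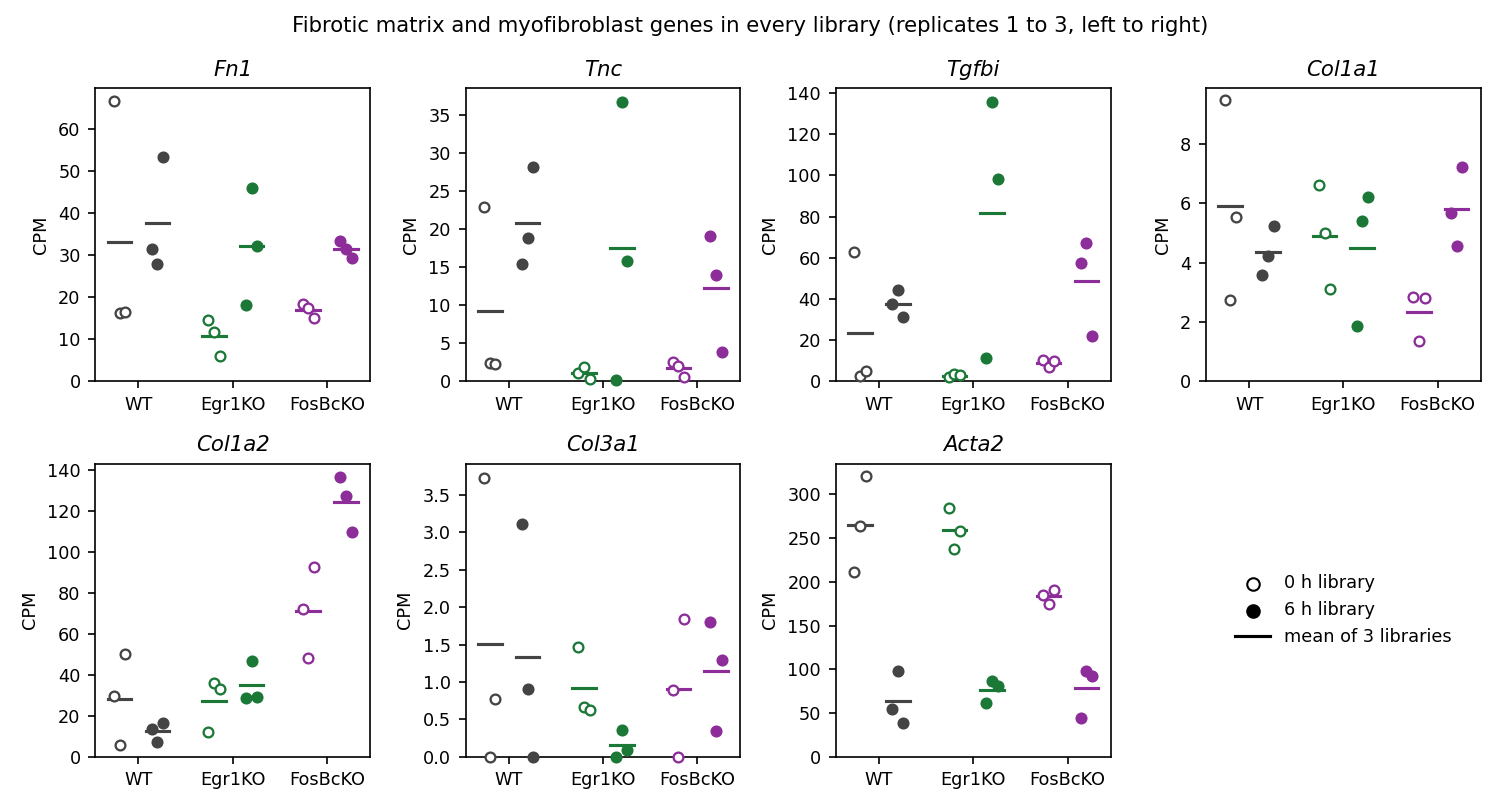
Expression of each of the 7 genes in CPM (vertical axis, from 0) in every library, by genotype, with open circles for 0 h, filled circles for 6 h and lines for the mean of 3 libraries. Acta2 is lower at 6 h in every genotype, Tgfbi at 6 h in Egr1KO spans 11.6 to 136 CPM, and WT replicate 1 at 0 h lies far above the other 0 h libraries for Fn1, Tnc and Tgfbi.

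Fn1 encodes fibronectin, a glycoprotein that binds integrins and collagen and seeds the matrix of a wound. In WT its level was 66.6, 16.2 and 16.5 CPM in replicates 1 to 3 at 0 h and 31.6, 27.8 and 53.4 CPM at 6 h. Egr1KO libraries held 14.5, 11.7 and 5.93 CPM at 0 h and 18.2, 46.1 and 32.2 CPM at 6 h. FosBcKO libraries held 18.3, 17.5 and 15.1 CPM at 0 h and 33.4, 31.5 and 29.4 CPM at 6 h. Every 6 h library of both knockouts thus lay above every 0 h library of the same genotype, whereas in WT the first 0 h library exceeded all 6 h libraries. How many of all genes had separate libraries in this way was not computed, so separation is only described, here and below.

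By edgeR's quasi-likelihood F-test, Fn1 rose in Egr1KO by 1.63 on the log2 scale (SE 0.39, FDR 0.0237), from 10.7 ± 4.38 to 32.2 ± 13.9 CPM (SD, n = 3). That call was lost without Egr1KO replicate 2 at 0 h (FDR 0.0757), replicate 3 at 0 h (FDR 0.0836) or replicate 3 at 6 h (FDR 0.0784). The FosBcKO difference of Fn1 was 0.89 (SE 0.18, FDR 0.00932) and stayed under the 2-fold minimum, with 17.0 ± 1.65 CPM at 0 h and 31.4 ± 2.00 CPM at 6 h. For WT the Fn1 difference was 0.06 (SE 0.55, FDR 0.947), and its 95% interval of -1.21 to 1.33 also contains the FosBcKO value. Without WT replicate 1 at 0 h it was 1.05, with an FDR of 0.0503.

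Tnc encodes tenascin C, a large glycoprotein that appears in embryos, wounds and tumours and loosens the hold of cells on fibronectin. The WT libraries held 22.9, 2.40 and 2.34 CPM at 0 h and 15.5, 18.9 and 28.1 CPM at 6 h. In Egr1KO the values were 1.14, 1.92 and 0.312 CPM at 0 h and 0.198, 36.7 and 15.8 CPM at 6 h. In FosBcKO they were 2.59, 1.97 and 0.582 CPM at 0 h and 19.1, 14.0 and 3.87 CPM at 6 h. Only in FosBcKO did the 6 h libraries all lie above the 0 h libraries. RefSeq (GRCm38.p6) places the gene 8030451A03Rik over part of Tnc, and reads of the pair may not be told apart. A single library stood against the others in WT, where replicate 1 was high at 0 h, and in Egr1KO, where replicate 1 was low at 6 h.

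The rise of Tnc in FosBcKO was 2.84 on the log2 scale (SE 0.66, FDR 0.0183, quasi-likelihood F-test), from counts of 29, 19 and 6 to 222, 162 and 45. Its FDR passed 0.05 without FosBcKO replicate 2 at 0 h (0.0577), replicate 3 at 0 h (0.0569) or replicate 1 at 6 h (0.0538), and in a fit of all 18 libraries (0.123). The Egr1KO difference of Tnc was larger, at 3.96, but less precise (SE 1.30, FDR 0.0664). It passed the threshold by edgeR's exact test (FDR 0.0177), by DESeq2 (FDR 0.0344) and in the fit of all 18 libraries (FDR 0.0394). Without Egr1KO replicate 1 at 6 h it was 4.51 with an FDR of 0.000605. The FDR was 0.137 with the replicate number as a block and 0.270 with no filter on low counts. When any other Egr1KO library was left out, the FDR was 0.127 to 0.218. For Tnc in WT the difference was 1.06 (SE 0.82, FDR 0.370), with a 95% interval of -0.85 to 2.97. Leaving out WT replicate 1 at 0 h gave 2.99 (FDR 0.0101), which was called.

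Tgfbi encodes a secreted matrix protein that TGF-beta induces and that links collagens to integrins, and deposits of it cloud the cornea in inherited dystrophies. WT libraries held 62.8, 2.67 and 4.96 CPM of it at 0 h and 37.5, 44.4 and 31.3 CPM at 6 h. The Egr1KO values were 2.12, 3.55 and 2.91 CPM at 0 h and 11.6, 136 and 98.3 CPM at 6 h. The FosBcKO values were 10.4, 6.95 and 10.1 CPM at 0 h and 57.3, 67.4 and 22.1 CPM at 6 h. Both knockouts had every 6 h library above every 0 h library. In WT the same held for replicates 2 and 3 at 0 h, but replicate 1 at 0 h exceeded all WT libraries at 6 h.

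Tgfbi had the largest difference among the 6 genes tested in Egr1KO, where it rose by 4.87 on the log2 scale (SE 0.83, FDR 0.00929, quasi-likelihood F-test), from 2.86 ± 0.717 to 81.9 ± 63.7 CPM (SD, n = 3). The call was lost without a filter on low counts (FDR 0.0683) and without Egr1KO replicate 1 at 0 h (FDR 0.0506). In FosBcKO Tgfbi rose by 2.43 (SE 0.43, FDR 0.0107), from 9.13 ± 1.89 to 48.9 ± 23.8 CPM (SD, n = 3), and its FDR was 0.109 in the fit of all 18 libraries. The WT difference of Tgfbi was 0.60 (SE 1.07, FDR 0.713), with a 95% interval of -1.98 to 3.17. Without WT replicate 1 at 0 h it was 3.20 (SE 0.37, FDR 0.0101), so this library decided the WT call of Tgfbi.

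**Figure D2:**
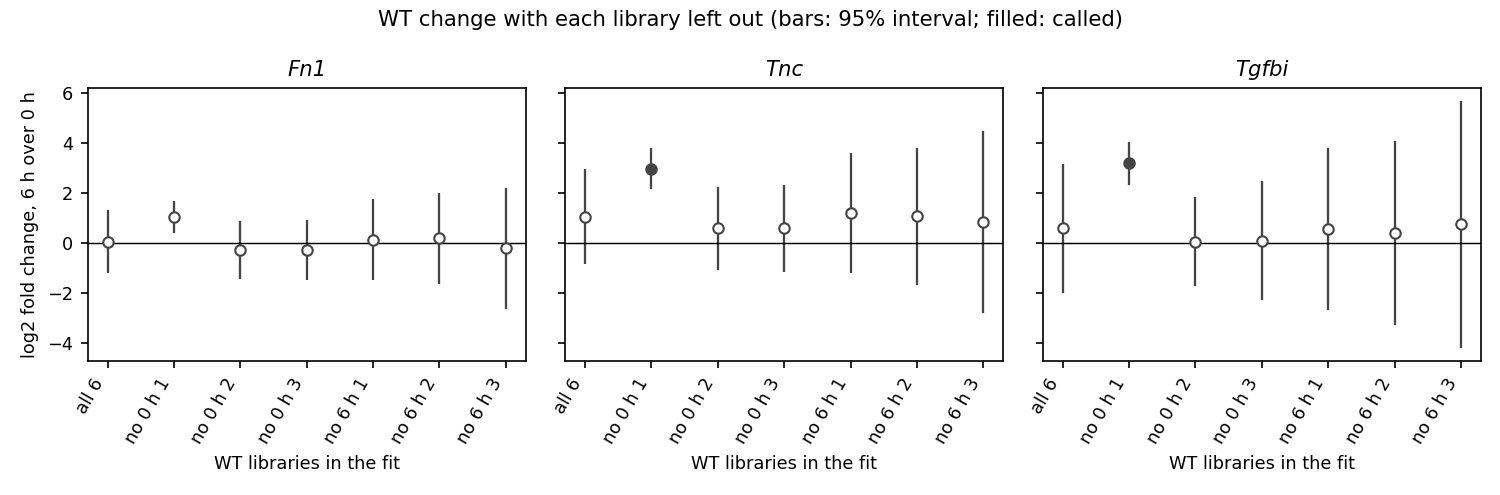
Log2 fold change of Fn1, Tnc and Tgfbi at 6 h over 0 h in WT (vertical axis) with all 6 libraries and with each library left out (horizontal axis), with bars for the 95% interval and filled circles for calls. Calls appear for Tnc (2.99) and Tgfbi (3.20) only where replicate 1 at 0 h is left out.

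The order of the libraries within a group was shared by Fn1, Tnc and Tgfbi in part. In 3 of 6 groups the same library was the highest for all 3 genes, and in 2 of 6 groups the same library was the lowest. In WT at 6 h, replicate 2 was the highest for Tgfbi and the lowest for Fn1. Among 10983 genes with a mean of at least 5 CPM, Tnc had the pattern most like that of Fn1 over the 18 libraries (Pearson's r = 0.88 on log2(CPM + 1)), and Tgfbi came at rank 3 (r = 0.85). The ID most like Tnc was ENSMUSG00000030774 (r = 0.96), and the ID most like Tgfbi was ENSMUSG00000055737 (r = 0.93), both with a higher mean level at 6 h than at 0 h. These points share libraries, depth and the change over time, and the values are descriptions.

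Col1a1 and Col1a2 encode the 2 chains of type I collagen, the main collagen of scars, skin and bone, and Col3a1 encodes the chain of type III collagen, which forms the finer fibrils of young scars. Col1a1 was low throughout, with counts of 13 to 99 per library. WT libraries held 9.48, 2.76 and 5.55 CPM of Col1a1 at 0 h and 3.58, 4.23 and 5.24 CPM at 6 h. The Egr1KO libraries held 6.61, 4.99 and 3.12 CPM at 0 h and 1.88, 5.41 and 6.22 CPM at 6 h. In both of these genotypes the time points overlapped.

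FosBcKO libraries held 2.86, 1.35 and 2.81 CPM of Col1a1 at 0 h and 5.67, 4.58 and 7.22 CPM at 6 h, with every 6 h library above every 0 h library. The difference of Col1a1 in FosBcKO was 1.30 on the log2 scale (SE 0.45) and missed the threshold (FDR 0.0628, quasi-likelihood F-test), while the exact test gave an FDR of 0.0329 and DESeq2 0.0343. Its 95% interval ran from 0.30 to 2.29. In WT the Col1a1 difference was -0.55 (SE 0.46, FDR 0.398), and in Egr1KO it was -0.07 (SE 0.51, FDR 0.931).

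Col1a2 spanned a wide range in WT at 0 h and had its highest means in FosBcKO. WT libraries held 29.5, 5.51 and 50.1 CPM at 0 h and 13.5, 7.26 and 16.6 CPM at 6 h. Egr1KO libraries held 12.2, 35.9 and 33.1 CPM at 0 h and 28.6, 46.6 and 29.1 CPM at 6 h. FosBcKO libraries held 71.9, 48.2 and 92.7 CPM at 0 h and 136, 127 and 110 CPM at 6 h. The time points overlapped in WT and in Egr1KO and were separate in FosBcKO, where each 6 h library also exceeded every WT and Egr1KO library.

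The difference of Col1a2 between 6 h and 0 h in FosBcKO was 0.80 on the log2 scale (SE 0.23, FDR 0.0371, quasi-likelihood F-test), which stayed under the 2-fold minimum. Without FosBcKO replicate 3 at 0 h it was 1.02 and was called (FDR 0.0312). The WT difference of Col1a2 was -1.30 (SE 0.66, FDR 0.181), and without WT replicate 2 at 0 h it was -1.79 and was called lower (FDR 0.0145). In Egr1KO the difference was 0.41 (SE 0.38, FDR 0.465).

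Col3a1 was close to the limit of detection. Its counts were 39, 0 and 8 in WT at 0 h and 33, 9 and 0 at 6 h, 18, 7 and 6 in Egr1KO at 0 h and 0, 5 and 1 at 6 h, and 10, 0 and 19 in FosBcKO at 0 h and 21, 4 and 15 at 6 h. Where the count was 0, a limit of 3 counts allows a Col3a1 level of up to 0.267 CPM in WT replicate 2 at 0 h, 0.286 in WT replicate 3 at 6 h, 0.297 in Egr1KO replicate 1 at 6 h and 0.311 in FosBcKO replicate 2 at 0 h. Such limits cover counting error only, since PCR copies were not told apart by molecular identifiers. The FosBcKO difference was 0.26 (SE 1.05, FDR 0.877, quasi-likelihood F-test). In Egr1KO every 6 h library lay below every 0 h library, with means of 0.152 ± 0.187 and 0.922 ± 0.474 CPM (SD, n = 3), and the gene was not tested there with the filter. Without the filter the Egr1KO difference of Col3a1 was -2.49 (FDR 0.288, quasi-likelihood F-test) and was not called.

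Acta2, the usual marker of a myofibroblast, was lower at 6 h in all 3 genotypes. WT libraries held 211, 264 and 321 CPM at 0 h and 54.1, 97.7 and 38.3 CPM at 6 h. Egr1KO libraries held 284, 238 and 258 CPM at 0 h and 62.1, 86.4 and 81.3 CPM at 6 h. FosBcKO libraries held 185, 175 and 191 CPM at 0 h and 44.1, 98.5 and 92.2 CPM at 6 h. No library overlapped between the time points in any genotype, and the lowest 0 h value of all, 175 CPM, lay above the highest 6 h value of all, 98.5 CPM.

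Acta2 fell by 2.15 on the log2 scale in WT (SE 0.38, FDR 0.00662), by 1.71 in Egr1KO (SE 0.16, FDR 0.000849) and by 1.21 in FosBcKO (SE 0.30, FDR 0.0263), all by the quasi-likelihood F-test. The ratio of mean CPM at 0 h to that at 6 h was 4.19 in WT, 3.39 in Egr1KO and 2.34 in FosBcKO. In FosBcKO the call of Acta2 was lost without replicate 1 at 0 h (FDR 0.0571), replicate 2 at 0 h (FDR 0.0532) or replicate 3 at 0 h (FDR 0.0719), and without replicate 1 at 6 h the change of -0.95 was under 2-fold. Acta2 shares most of its coding sequence with other actin genes, and read pairs that fit more than one place were not counted, so its level is uncertain. The ID with the pattern most like that of Acta2 over the 18 libraries was ENSMUSG00000006095 (r = 0.97), with a mean of 62.1 CPM at 0 h and 23.0 CPM at 6 h.

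**Figure D3:**
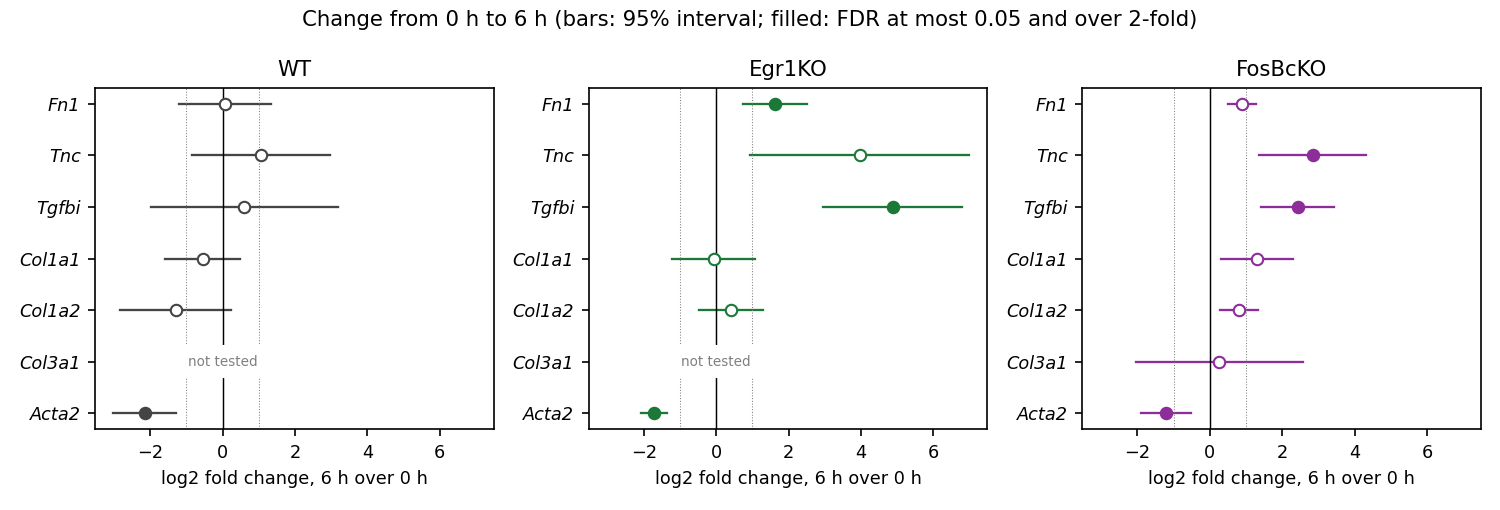
Log2 fold change at 6 h over 0 h (horizontal axis) of the genes in WT, Egr1KO and FosBcKO, with Col3a1 tested in FosBcKO alone, bars for the 95% interval, filled circles for DEGs and dotted lines at a 2-fold change. Acta2 is to the left of zero in each panel (-2.15, -1.71 and -1.21), Tgfbi is filled in both knockouts (4.87 and 2.43), and the WT intervals of Tnc and Tgfbi are wide and cross zero.

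The change averaged over the 3 genotypes was tested in a single fit of the 18 libraries, a choice made after the values were seen. Tgfbi was 2.64 higher at 6 h on the log2 scale (SE 0.59, FDR 0.00227) and Tnc was 2.63 higher (SE 0.70, FDR 0.00628) by the quasi-likelihood F-test, and both were called. Fn1 was 0.87 higher (SE 0.27, FDR 0.0150), under the 2-fold minimum, and without WT replicate 1 at 0 h its value was 1.20 and was called. Acta2 fell by 1.68 (SE 0.20, FDR 8.00e-06). Of the 7 genes 2 were thus called higher and 1 lower, where 19.3% of all 17469 genes tested were called higher and 3.22% lower.

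Averaged in the same way, the collagen genes gave 0.23 for Col1a1 (SE 0.28, FDR 0.496), -0.02 for Col1a2 (SE 0.32, FDR 0.967) and -0.78 for Col3a1 (SE 0.82, FDR 0.440). Their 95% intervals ran from -0.35 to 0.81, from -0.71 to 0.68 and from -2.52 to 0.95. A mean change of more than 2-fold in either direction lay outside the intervals of Col1a1 and Col1a2 but within that of Col3a1. For Col1a2 the separate fits differed in direction, at -1.30 in WT, 0.41 in Egr1KO and 0.80 in FosBcKO. Its mean near zero therefore does not show that Col1a2 was unchanged in each genotype.

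An exact two-sided permutation test of each gene, which exchanged time labels within each genotype over 8000 arrangements, used the mean difference of log2(CPM + 1). This difference was 2.61 for Tgfbi (exact permutation p = 0.001), 2.01 for Tnc (p = 0.008), 0.93 for Fn1 (p = 0.00975) and -1.73 for Acta2 (p = 0.00025, the smallest value these arrangements allow). For Col1a1 it was 0.21 (exact permutation p = 0.456), for Col1a2 0.18 (p = 0.654) and for Col3a1 -0.18 (p = 0.604). The surgery gave a 0 h eye and a 6 h eye in each mouse, and the labels do not say which libraries share mice. These exchanges, and the quasi-likelihood F-tests of 6 h against 0 h given above, take no account of such pairs. The added 1 CPM makes the differences of low genes such as Tnc and Col3a1 smaller than their fitted values.

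To find whether loss of Egr1 or FosB changed the genes before injury, each knockout was compared with WT at 0 h by edgeR's exact test. Of the 6 genes tested, 0 were called in Egr1KO and 0 in FosBcKO, where 0.41% and 0.295% of all genes were called in either direction. At an unadjusted p of 0.05, 920 and 818 genes of all tested passed. All comparisons of knockouts with WT at 1 time share the same 3 WT libraries.

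Fn1, Tnc and Tgfbi had lower means in both knockouts at 0 h, and the WT mean rested on replicate 1. Their log2 differences in Egr1KO against WT were -1.61 (FDR 0.669), -3.01 (FDR 0.488) and -3.01 (FDR 0.637) by the exact test. Without WT replicate 1 at 0 h these were -0.60, -1.07 and -0.40. In FosBcKO the differences of Fn1, Tnc and Tgfbi were -0.97 (FDR 1), -2.43 (FDR 0.811) and -1.36 (FDR 1), and without that library they were 0.06, -0.46 and 1.28. The direction of Fn1 and Tgfbi in FosBcKO against WT at 0 h was therefore set by that library.

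Acta2 was lower in every FosBcKO library at 0 h than in every WT library, at 183 ± 7.89 against 265 ± 55.1 CPM (SD, n = 3). The log2 difference of -0.53 (SE 0.14) did not pass the exact test's threshold (FDR 0.358). Col1a1 had a mean of 2.34 ± 0.858 CPM in FosBcKO and 5.93 ± 3.38 CPM in WT at 0 h, a difference of -1.32 (SE 0.52, FDR 0.710). Col1a2 gave 1.35 (SE 0.83, FDR 1), with means of 70.9 ± 22.3 and 28.4 ± 22.3 CPM.

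At 6 h PCS, Col1a2 was the gene of the list called between genotypes. It was higher in FosBcKO than in WT by 3.46 on the log2 scale, or 11.0-fold (SE 0.28, exact test FDR 7.73e-24), with 124 ± 13.6 CPM in FosBcKO and 12.4 ± 4.75 CPM in WT (SD, n = 3). This call stood in all alternatives run for it, with FDR 0.00137 by the quasi-likelihood F-test. Of the 7 genes tested 1 was called higher, where 4.48% of all 16155 genes were. The other 6 genes had FDRs from 0.549 to 0.988, among them Tnc at -0.63 (SE 0.48), Tgfbi at 0.50 (SE 0.39), Col1a1 at 0.55 (SE 0.33) and Acta2 at 0.43 (SE 0.44).

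In Egr1KO at 6 h Col1a2 was higher than in WT by 1.70 on the log2 scale, or 3.25-fold (SE 0.31, exact test FDR 0.00214), with 34.8 ± 10.2 CPM in Egr1KO. Over all 15618 genes tested, 0.461% were called higher by the exact test. Every Egr1KO library lay above every WT library for Col1a2. The share of all genes with libraries separate in this way was not computed, here or for the other comparisons. The Col1a2 call was not made by the quasi-likelihood F-test (FDR 0.394) or in the fit of all 18 libraries (FDR 0.286). Tgfbi gave 1.29 (SE 0.67, exact test FDR 0.547), and without Egr1KO replicate 1 at 6 h it was 1.81 and was called. Acta2 gave 0.46 (SE 0.36, FDR 0.799).

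**Figure D4:**
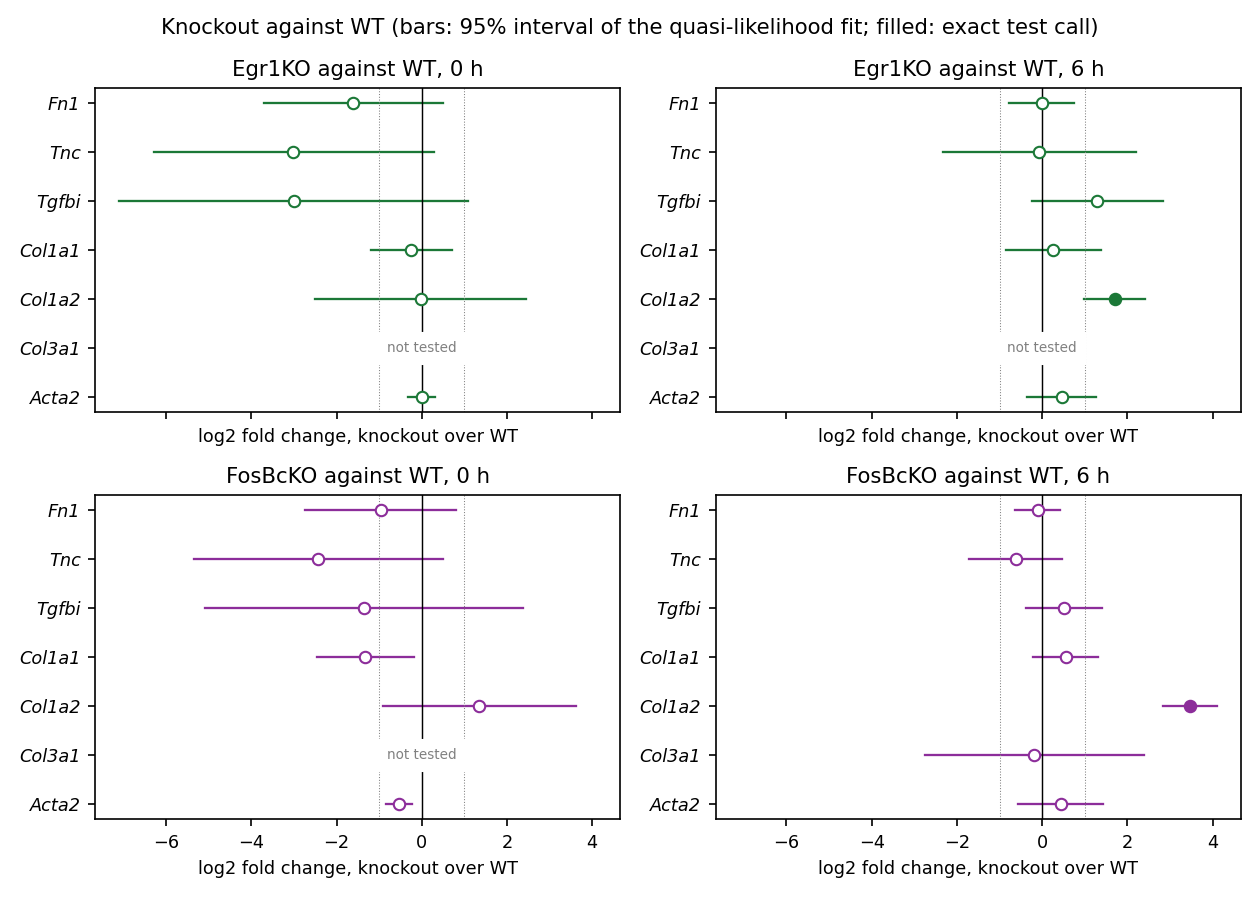
Log2 fold change of each knockout over WT (horizontal axis) at 0 h and at 6 h, with bars for the 95% interval of the quasi-likelihood fit, filled circles for calls of the exact test and dotted lines at a 2-fold change. Col1a2 at 6 h is filled in both knockouts (1.70 in Egr1KO and 3.46 in FosBcKO), and at 0 h no gene is filled.

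The ratio of Col1a2 to Col1a1 counts was 4.72 ± 3.78 in WT at 0 h, 2.88 ± 1.05 in WT at 6 h, 31.3 ± 5.48 in FosBcKO at 0 h and 22.3 ± 6.45 in FosBcKO at 6 h (SD, n = 3). All 6 FosBcKO libraries lay between 15.2 and 35.8, and all 6 WT libraries between 1.71 and 9.04. In Egr1KO the ratio was 6.54 ± 4.42 at 0 h and 9.50 ± 5.32 at 6 h (SD, n = 3), and its libraries overlapped those of WT. The ratio was chosen after its values were seen and is given as a description. A permutation test of it was run after that choice, and its result is not used here for that reason. Gene lengths enter it equally in all libraries, and Col1a1 counts as low as 13 limit its precision.

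**Figure D5:**
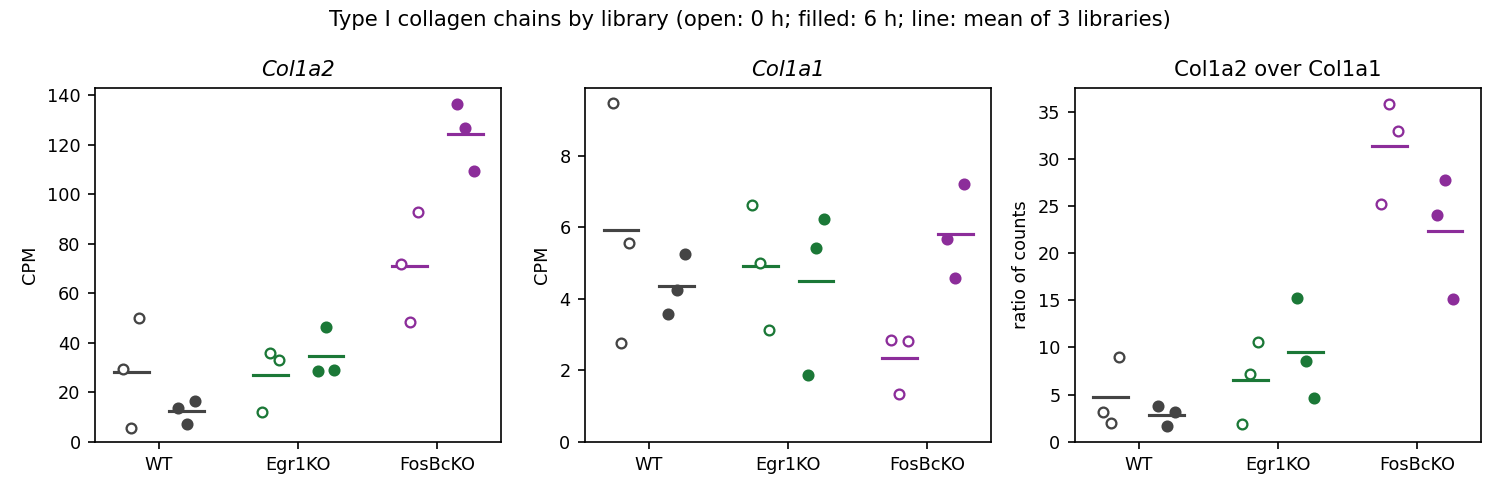
Levels of Col1a2 and Col1a1 in CPM and the ratio of their counts (vertical axes, from 0) in every library, with open circles for 0 h, filled circles for 6 h and lines for means of 3 libraries. The FosBcKO ratios of 15.2 to 35.8 lie above the WT ratios of 1.71 to 9.04, while Col1a1 itself overlaps between the genotypes.

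Over the 18 libraries the ID with the pattern most like that of Col1a2 was ENSMUSG00000063796 (r = 0.98), and the 3 IDs most like it had r of 0.98. Col1a1, with counts of 13 to 99 per library, had no such close match, with a highest r of 0.68. Col1a2 was not among the 3 IDs most like Col1a1. The reverse could not be asked, because Col1a1, with means of 4.39 CPM at 0 h and 4.89 CPM at 6 h, was under the minimum of 5 CPM for the genes compared.

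Interactions of genotype and time, fitted over all 18 libraries, were used to ask if a knockout changed by another amount than WT at 6 h, by edgeR's quasi-likelihood F-test. None of the 7 genes was called for Egr1KO or FosBcKO, where 0% of 17469 genes were called in either case. At an unadjusted p of 0.05, 1141 genes passed for Egr1KO and 1171 for FosBcKO, and DESeq2 called 2 and 29 genes at the same FDR. A rise called in a knockout and not in WT is thus not shown to differ between them.

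The interaction estimates were wide. For Egr1KO the change was larger than in WT by 4.26 for Tgfbi (95% interval 1.15 to 7.37, FDR 0.719), by 2.89 for Tnc (FDR 0.795), by 1.55 for Fn1 (0.13 to 2.97, FDR 0.738) and by 1.68 for Col1a2 (FDR 0.766). Without WT replicate 1 at 0 h the Tgfbi value was 1.63, the Tnc value 0.94 and the Fn1 value 0.53. For FosBcKO the values were 2.03 for Col1a2 (0.30 to 3.77, FDR 0.692), 1.79 for Col1a1 (0.36 to 3.23, FDR 0.622), 1.78 for Tgfbi (FDR 0.842) and 1.73 for Tnc (FDR 0.877). The Acta2 value for FosBcKO was 0.88 (-0.11 to 1.88, FDR 0.777), so a smaller fall than in WT was not shown. Without WT replicate 1 at 0 h the FosBcKO values of Tgfbi and Tnc were -0.85 and -0.22.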

How the data were processed

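The deposited tables hold raw counts, the number of read pairs on each Ensembl gene. The authors sequenced ribodepleted, stranded libraries in pairs, aligned them with Hisat2 and counted with HTSeq-count in union mode. The study's methods name the GRCm38 assembly and the submitters' processing notes GRCm39, so no coordinates are given. The strand setting of the counting is not given in the sources used here. HTSeq's summary lines were left out of library sizes. No sequences were printed, because the reference tables hold no sequence and pair 0 Ensembl IDs with names.

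The 7 genes, and the choice to describe them, were made with earlier results of these data known. Groups and replicate numbers came from the labels, which describe replicates as separate pools of capsules. No 2 libraries held identical values. Tests used edgeR 4.0.16 in R 4.3.3 on all genes kept by filterByExpr, with TMM scaling and robust dispersions. The quasi-likelihood F-test compared 6 h with 0 h within a genotype, and the exact test compared knockouts with WT. The study's methods name the former for its initial and the latter for its later analyses, and do not assign them to these contrasts. Each fit used the 6 libraries of its contrast, and interactions used all 18. SEs and intervals of exact test results come from the quasi-likelihood fit. FDRs were adjusted over all genes tested. The scripts were tested on simulated counts.

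Named genes were the 7 members and, by rule, the 3 genes of at least 5 CPM most like each member with a mean of at least 1 CPM, of which 4 IDs are printed. Lists of other matrix, myofibroblast, TGF-beta and cell type genes need names and were not analysed here. Same-numbered WT libraries at 0 h and 6 h deviated together (r of 0.102, 0.230 and 0.247 over genes), so a fit with the replicate number as a block was compared. For Egr1KO (0.0198 to 0.146) and FosBcKO (0.0776 to 0.181) the numbers did not meet the limit of 0.1 in every pair.

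Alternatives were the other edgeR test, DESeq2 1.42.0, RLE scaling, scaling without the 10 most abundant genes, keeping every gene with a count, keeping genes with 10 counts in 3 libraries, plain dispersions, no fold minimum, the replicate block, a fit of all 18 libraries and leaving out each library. The mean change over the genotypes, the collagen ratio and the permutation tests were added after the data were seen.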

Additional observations from a re-analysis of the deposited data

How the results depend on the processing

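With 3 libraries a group, calls near the threshold moved with single libraries. For 6 h against 0 h, leaving out a library gave 1 to 3 genes called in WT, 2 to 4 in Egr1KO, 1 to 3 in FosBcKO and 3 to 4 for the mean over genotypes, and for Egr1KO against WT at 6 h it gave 1 to 2. In FosBcKO 5 genes were called with no fold minimum and 1 in the fit of all 18 libraries, against 3. The Col1a2 call of Egr1KO against WT at 6 h became 0 calls by the quasi-likelihood F-test, in the fit of all 18 libraries and with the replicate block. Over all genes tested in that comparison, these settings called 0%, 0.0401% and 0%. With no filter on low counts the interaction called 4 genes for Egr1KO (Fn1, Tnc, Tgfbi and Col1a2) and 2 for FosBcKO (Tgfbi and Col1a2), against 0 each, and the cause was not tested. Over all 35202 genes of that fit, 0.750% were called for Egr1KO and 1.15% for FosBcKO. The Egr1KO value of Tnc was 2.89 (SE 1.66) with the filter and 2.92 (SE 0.51) without it.

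The replicate block changed no call in WT. In FosBcKO, where the numbers were not shown to pair the libraries, it called Col1a1 at 6 h (log2 change 1.34, FDR 0.0369). It gave 0 calls of Egr1KO against WT at 6 h, with a Col1a2 FDR of 0.689.

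Among the changes printed above, those whose direction turned when a library was left out ran from -0.28 to 1.05 for Fn1 in WT, -0.42 to 0.26 for Col1a1 in Egr1KO, -0.39 to 1.23 for Col3a1 in FosBcKO, -1.89 to 1.28 for Tgfbi and -1.29 to 0.064 for Fn1 in FosBcKO against WT at 0 h, -0.22 to 2.18 for Tnc and -0.85 to 2.30 for Tgfbi in the FosBcKO interaction, and -0.23 to 0.20 for Col1a2 in the mean change. That Col1a2 value was also 0.0015 by DESeq2, 0.0044 with RLE scaling and 0.14 with the replicate block. Of 477 single-gene values under other settings, 453 kept direction and side of the threshold, and of 504 with a library left out 470 did.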
